A study of Homo sapiens with 95 samples.

Results

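The 10 genes described here encode proteases that cut extracellular matrix or activate plasminogen, together with the receptor and the inhibitors that act on them. They are the matrix metalloprotease (MMP) genes MMP1, MMP2, MMP9, MMP10 and MMP14, the tissue inhibitor genes TIMP1 and TIMP2, the plasminogen activator genes PLAU and PLAT, and the activator receptor gene PLAUR. The genes were taken by symbol, and all 10 were among the 27978 symbols listed for each of 95 libraries. The libraries were made by sparse full length (SFL) sequencing, a pooled and barcoded RNA-seq based on depletion of ribosomal RNA. The RNA came from AALE, a human bronchial epithelial line that has been immortalized. Cells carried a CRISPR knockout of FAT1 or CDKN2A, with cells given a Cas9-EGFP plasmid (PX458) but no guide RNA as the GFP control. Other cells overexpressed NRF2 (NFE2L2), FGFR1, NRG1 or PIK3CA, with cells that expressed the reporter HcRed from an otherwise empty vector (HCRED) as the control. Each of these 8 lines received DMSO or an exposure that the study calls a lung carcinogen. This was the condensate of cigarette smoke (CSC, at 24 μg/ml), the polycyclic hydrocarbon benzo(a)pyrene (BaP, at 173 μM) or the nitrosamine NNK (at 490 μM). The length of exposure was not given in the sources used here. Of the 32 combinations, 31 had 3 libraries and FGFR1 with CSC had 2. Every line derives from AALE cells, and the study calls the libraries of a combination biological replicates, of cells plated in 24-well plates. The sources do not say whether the wells of a combination came from separate cultures or days, so p-values measure the spread between these samples. Whether a perturbed line was a pool or a clone was not given.

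As background, MMPs are zinc proteases that are made as inactive precursors. MMP14 is anchored in the cell membrane, cleaves collagen and, together with TIMP2, activates the precursor of MMP2 at the cell surface. MMP1 is an interstitial collagenase, MMP2 and MMP9 are gelatinases, and MMP10 is a stromelysin. The activators urokinase (PLAU) and tissue plasminogen activator (PLAT) convert plasminogen to plasmin, and PLAUR holds urokinase at the cell surface. TIMP1 and TIMP2 bind the active site of MMPs. In airway epithelium these proteins are known from wound repair, cell migration and invasion.

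The libraries held 287446 to 2116383 counted reads (median 934235), so that 3 counts, the limit used here for a gene with no read, corresponded to 1.42 to 10.4 CPM (the count of a gene relative to all counted reads of its library). CPM values below were scaled by the trimmed mean of M values (TMM). Reads of the targeted genes matched the labels, since FAT1 and CDKN2A were lower in every library of their knockout line than in any GFP library, and each overexpressed gene was higher in every library of its line than in any HcRed library. In 8 libraries outside the NRG1 line, NRG1 was above 60 CPM before TMM scaling (highest, 369.5 CPM), and calls that changed without them are named below. All 6 listed markers of basal airway epithelium had reads in each library, but not all were high. Lowest levels were 1605 CPM for KRT5, 514 for ITGB4, 444 for KRT17, 124 for TP63, 47.0 for DSG3 and 14.0 for KRT14. KRT14 varied most widely, up to 748 CPM (median 241). The fibroblast list (29.5 CPM summed, median) was almost entirely COL1A1 and the leukocyte and endothelial list (14.7 CPM) almost entirely CD68. Secretory and ciliated markers were near 0 (1.31 CPM). Under all 3 chemicals, fold changes followed the GC content of genes, which is given beside the chemical results.

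MMP1, MMP9 and MMP10 were at the limit of detection. MMP1 had 26 reads in 20 of 95 libraries, MMP9 had 33 reads in 27 libraries and MMP10 had 17 reads in 14 libraries, and none of the 3 passed the filter of a mean count above 1, so they were not tested. Over its 12 libraries, the CDKN2A line held 12 of the MMP1 reads, or 1.06 CPM of its pooled reads (95% Poisson interval 0.549 to 1.86 CPM, for counting error only). The GFP line held 1 MMP1 read in 12 libraries, or 0.0937 CPM (0.0024 to 0.522), and the NRG1 line held 0, which allows up to 0.2685 CPM at 3 counts. MMP9 had between 1 read (GFP) and 8 reads (CDKN2A) per line and MMP10 between 0 reads (FGFR1, up to 0.286 CPM) and 6 reads (CDKN2A). No library held more than 3 reads of any of these genes, and no test over libraries was made. For MMP1 the counting intervals of the CDKN2A and GFP lines did not overlap, but they leave out the spread between libraries, and differences between chemicals within a line were not detectable at this depth.

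The other 7 genes passed the filter. To compare genes with each other, CPM were divided by exon length (merged exons of GENCODE models on GRCh37) and are given as medians over the 95 libraries. Reads had been assigned to RefSeq genes, whose exons can be shorter than the merged GENCODE exons. The values per kb and the order of genes therefore depend on the models used, and RefSeq lengths were not tried. TIMP1 (44.004 CPM per kb, range 7.74 to 99.1) and MMP14 (40.6, range 27.2 to 62.2) were the most abundant, and their ranges overlapped. PLAU followed at 13.8 (6.16 to 23.4) and TIMP2 at 10.4 (4.35 to 18.7), again with overlapping ranges. PLAUR reached 4.955 (1.94 to 12.1), PLAT 1.95 (0.292 to 6.67) and MMP2 1.525 (0 to 4.32), and MMP2 had no read in 4 libraries. MMP14 and TIMP1 were thus at or above 96.5% and 96.9% of the symbols with a known length, and MMP2 at or above 56.5%.

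On hg19 coordinates, MMP14 lies on chromosome 14 (23305769 to 23318250, plus strand), MMP2 on chromosome 16 (55423612 to 55540603, plus), TIMP1 on chromosome X (47441807 to 47446188, plus) and TIMP2 on chromosome 17 (76849059 to 76921469, minus). PLAU lies on chromosome 10 (75668935 to 75677254, plus) and PLAUR on chromosome 19 (44150247 to 44174699, minus). Counts cover all exons of a gene, coding and untranslated. The strand setting of the counting was not given, and exons of PLAU share 915 bases with the antisense gene C10orf55, so reads there cannot be assigned to one of the genes with certainty. TIMP2 shares 224 exonic bases with CEP295NL on the same strand.

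The 250 bases before the transcription start of 4 of the genes are shown because they hold, or lack, the letters bound by factors that tobacco chemicals are known to activate. They come from a RefSeq promoter table on GRCh38.p14 that held 5 of the 10 genes (MMP10, MMP14, TIMP1, PLAU and PLAUR) and not MMP1, MMP2, MMP9, TIMP2 or PLAT. Capitals mark TGANTCA, the AP-1 motif, which reads the same on both strands, and GCGTG or its complement CACGC, the core of the dioxin response element. The motifs do not overlap in these sequences. PLAU, not printed, had an entry with 1 dioxin core (chr10:73910882-73911131, plus) and another with neither motif (chr10:73910360-73910609, plus), so its match depends on the start used. PLAUR holds 1 of each (chr19:43670170-43670419, minus strand), TIMP1 holds 1 dioxin core (chrX:47582186-47582435, plus), MMP14 holds neither (chr14:22836335-22836584, plus) and MMP10 holds 1 AP-1 motif (chr11:102780629-102780878, minus).
PLAUR: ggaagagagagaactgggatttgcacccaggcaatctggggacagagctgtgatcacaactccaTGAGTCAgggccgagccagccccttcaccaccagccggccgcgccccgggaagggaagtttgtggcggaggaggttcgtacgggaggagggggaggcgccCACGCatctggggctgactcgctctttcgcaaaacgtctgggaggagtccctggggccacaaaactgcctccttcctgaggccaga
TIMP1: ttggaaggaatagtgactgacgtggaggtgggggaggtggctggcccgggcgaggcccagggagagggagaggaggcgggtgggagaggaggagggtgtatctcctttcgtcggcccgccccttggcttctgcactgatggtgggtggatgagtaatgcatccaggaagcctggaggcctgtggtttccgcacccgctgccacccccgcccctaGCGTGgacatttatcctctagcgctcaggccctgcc
MMP14: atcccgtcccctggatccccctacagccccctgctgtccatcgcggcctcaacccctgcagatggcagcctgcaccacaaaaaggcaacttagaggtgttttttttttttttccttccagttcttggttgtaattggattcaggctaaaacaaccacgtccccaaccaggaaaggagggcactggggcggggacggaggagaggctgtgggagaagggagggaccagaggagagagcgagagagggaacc
MMP10: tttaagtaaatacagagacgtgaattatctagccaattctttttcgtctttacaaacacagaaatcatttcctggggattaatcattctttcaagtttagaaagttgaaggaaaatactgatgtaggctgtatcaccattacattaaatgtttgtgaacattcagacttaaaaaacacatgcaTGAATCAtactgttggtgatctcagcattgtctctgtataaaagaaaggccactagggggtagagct
TGANTCA was in 6.57% and the dioxin core in 32.22% of all 35116 promoters of the table over the same 250 bases. A match describes letters only. Sites that differ from these motifs were not searched, so a promoter without a match can still hold a variant site.

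**Figure D1:**
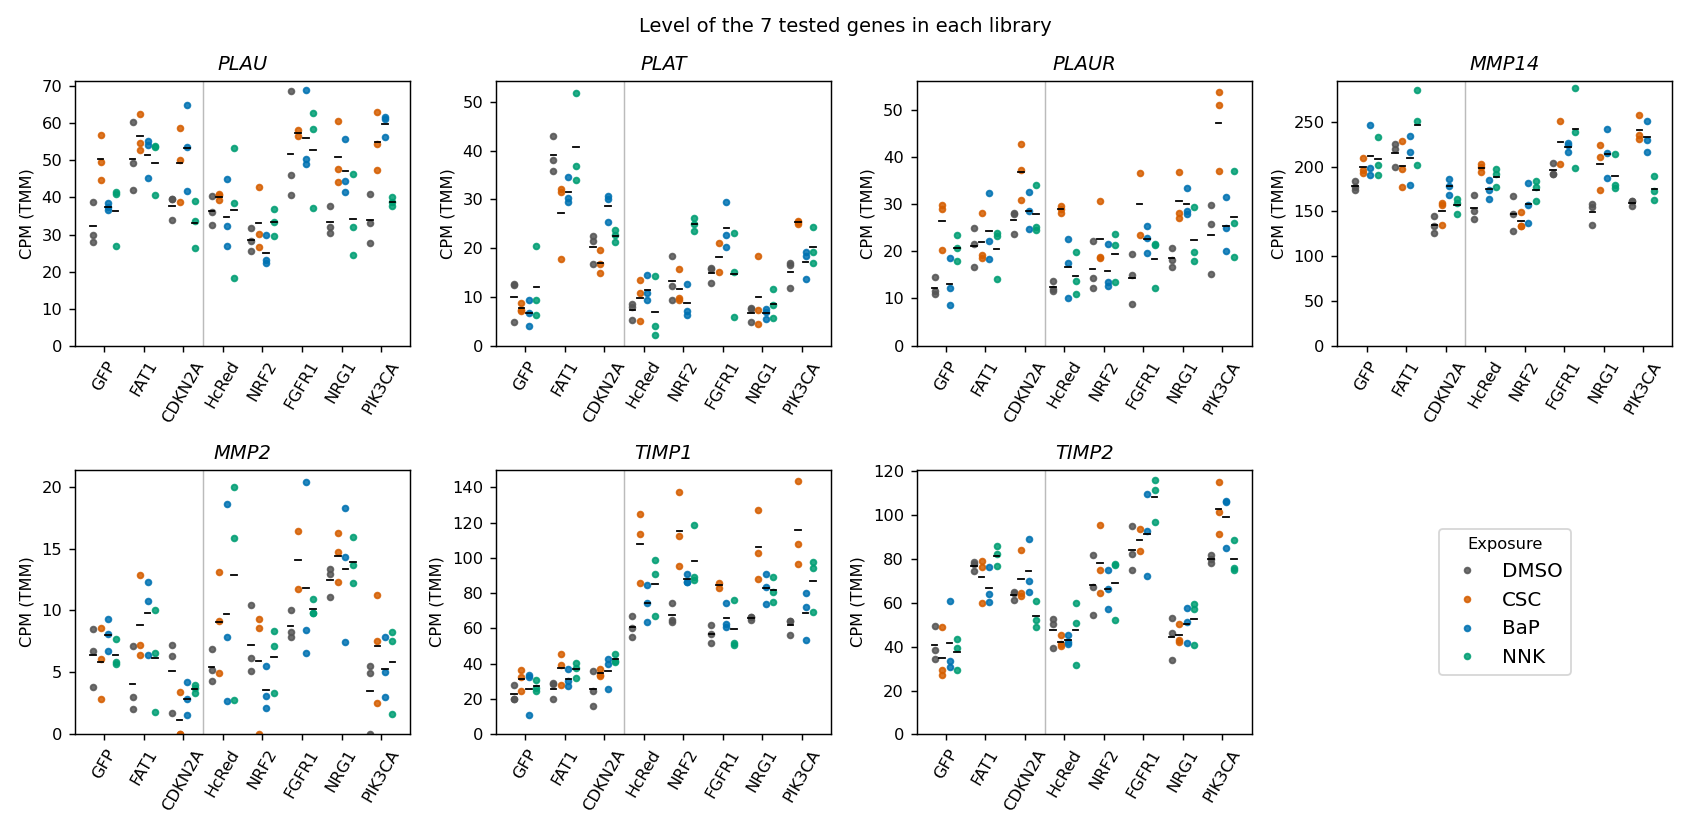
Level in TMM-scaled CPM (linear axis from 0) of the 7 tested genes in each of the 95 libraries, by line (horizontal axis) and exposure (colour). Short black lines are means of 3 libraries (2 for FGFR1 with CSC) and the grey line separates the GFP set from the HcRed set. TIMP1 is at 11.2 to 45.7 CPM left of that line and at 50.9 to 143 CPM right of it, and by median over a line TIMP2 and PLAT are lowest in GFP, HcRed and NRG1 cells.

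Each knockout or overexpression line was compared with its control, first with DMSO alone (3 libraries against 3) and then over the libraries with CSC, BaP or NNK, with chemical as a covariate (9 against 9, and 8 against 9 for FGFR1). TIMP2 was higher than in the control in 5 of the 6 perturbed lines and PLAT in 4, in at least 1 of the exposure settings, and neither was called in NRG1 cells. MMP14 was also called in 4 lines, lower in CDKN2A and NRF2 cells and higher in FGFR1 and PIK3CA cells, with log2 fold changes between -0.43 and 0.36. MMP2, PLAU and PLAUR were called in fewer lines. The FAT1 and CDKN2A comparisons share the GFP libraries and the 4 overexpression comparisons share the HcRed libraries, so values of different lines are given side by side. The share of all genes whose groups do not overlap is not given here. A lack of overlap is therefore a description of the values and no support for a difference. Whether an effect differed between DMSO and the chemicals was tested only as an interaction over all lines.

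**Figure D2:**
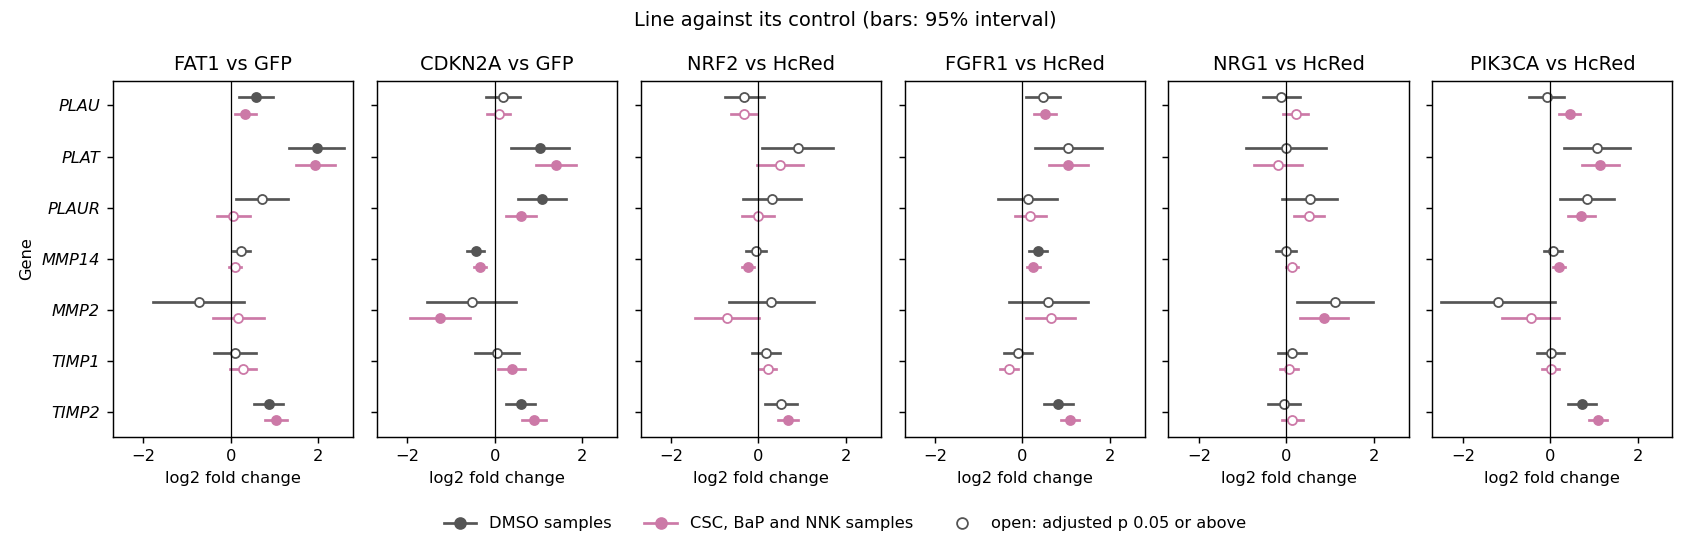
Log2 fold change (horizontal axis) of the 7 tested genes (vertical axis) in each line against its control, with DMSO (grey) and over the CSC, BaP and NNK libraries (pink). Bars are 95% intervals and filled points have an adjusted p below 0.05. PLAT is farthest from 0 in FAT1 cells (1.97 with DMSO) and TIMP2 lies at 0.52 to 1.10 in 5 lines but at -0.05 and 0.13 in NRG1 cells.

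In FAT1 knockout cells, PLAT, PLAU and TIMP2 rose. FAT1 is an atypical cadherin. With DMSO, 3 of 7 tested members were called, against 26.3% of all 14266 genes tested. PLAT stood at 35.8, 38.2 and 43.0 CPM in FAT1 cells and at 4.80, 12.4 and 12.6 CPM in GFP cells. All FAT1 libraries were above all GFP libraries, and the log2 fold change was 1.97 ± 0.31 (SE, n = 3 and 3; 3.91-fold; limma adjusted p = 3.22e-06). TIMP2 was 74.6, 77.9 and 78.5 CPM against 34.6, 38.7 and 49.6 CPM, a log2 fold change of 0.87 ± 0.17 (adjusted p = 7.43e-05), again without overlap. PLAU was 41.9, 49.2 and 60.4 CPM against 28.0, 29.8 and 38.8 CPM (0.58 ± 0.20, adjusted p = 0.0243). The groups did not overlap for PLAU, but the call ended after the correction for GC content and length (log2 fold change 0.46, adjusted p = 0.0684), with DESeq2 (adjusted p = 0.124) and without any of 4 single libraries (FAT1 replicates 2 and 3, GFP replicates 1 and 2; 0.44 to 0.58).

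Under the chemicals the same 3 genes were called in FAT1 cells, against 40.9% of 13861 genes. PLAT had a median of 32.1 CPM (17.8 to 51.8) against 7.29 CPM (4.06 to 20.4), and TIMP2 a median of 76.5 CPM (59.7 to 85.7) against 33.6 CPM (27.0 to 60.9). Their log2 fold changes were 1.94 ± 0.22 and 1.03 ± 0.13 (adjusted p = 1.65e-11 and 1.08e-10). PLAU was 0.33 ± 0.12 higher (adjusted p = 0.0212) and was not called without replicate 1 (adjusted p = 0.149) or replicate 3 (0.0702). MMP14 (0.24 ± 0.10, adjusted p = 0.0567) and PLAUR (0.71 ± 0.29, adjusted p = 0.0673) did not pass with DMSO. Their groups did not overlap, which is given as a description only. MMP2 and TIMP1 did not pass in either setting.

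CDKN2A knockout cells showed the largest number of called members, but in both settings also the largest share of all genes called of any perturbed line. They held the only falls of MMP14 and MMP2 that passed in a knockout line. CDKN2A encodes the cell cycle inhibitor p16 and the p53 regulator ARF. With DMSO, 4 of 7 members were called, against 37.2% of 14540 genes, and under the chemicals 6 of 7, against 50.9% of 14277 genes. PLAUR, the urokinase receptor, was 23.6, 28.0 and 28.2 CPM in CDKN2A cells with DMSO and 10.9, 11.5 and 14.5 CPM in GFP cells. The log2 fold change was 1.09 ± 0.28 (2.12-fold, adjusted p = 0.00116), and 0.60 ± 0.17 (adjusted p = 0.00295) under the chemicals, where the groups overlapped and the call ended without replicate 1 (0.44, adjusted p = 0.0885). PLAT rose by 1.04 ± 0.33 with DMSO, from 4.80, 12.4 and 12.6 to 16.7, 21.5 and 22.6 CPM (adjusted p = 0.00923). That call ended without the lowest GFP library, replicate 2 (0.63, adjusted p = 0.131), and with DESeq2 (adjusted p = 0.103). Over the chemicals PLAT was 1.41 ± 0.23 higher (adjusted p = 4.71e-07).

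MMP14 was 126, 133 and 145 CPM in CDKN2A cells with DMSO and 174, 178 and 184 CPM in GFP cells. The ranges did not overlap, and the log2 fold change of -0.43 ± 0.10 (adjusted p = 0.000341) became -0.66 after the GC correction. Under the chemicals MMP14 was also lower in each of the 9 CDKN2A libraries (135 to 187 CPM) than in any GFP library (190 to 246 CPM), by -0.33 ± 0.07 (adjusted p = 4.29e-05). MMP2, the gelatinase that MMP14 activates, was at a median of 3.31 CPM (0 to 4.26) under the chemicals against 6.72 CPM (2.90 to 9.33), a log2 fold change of -1.26 ± 0.34 (adjusted p = 0.00167). MMP2 rests on few reads, and with DMSO its difference of -0.53 ± 0.51 did not pass (adjusted p = 0.444). TIMP2 rose by 0.60 ± 0.17 with DMSO (61.3, 64.6 and 65.1 against 34.6, 38.7 and 49.6 CPM; adjusted p = 0.00308) and by 0.90 ± 0.14 under the chemicals (adjusted p = 9.57e-08). TIMP1 rose by 0.39 ± 0.16 under the chemicals (adjusted p = 0.0308), beside 0.06 ± 0.25 with DMSO (adjusted p = 0.871). The call under the chemicals ended after the GC correction (0.21, adjusted p = 0.268), with no filter on low counts (adjusted p = 0.0518) and without replicate 2 or 3 (adjusted p = 0.123 and 0.124).

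Among overexpression lines, FGFR1 and PIK3CA cells had the most called members. FGFR1 is a receptor tyrosine kinase and PIK3CA the catalytic subunit of a phosphoinositide 3-kinase. TIMP2 in HcRed cells with DMSO was 39.3, 50.4 and 52.53 CPM. It was 75.0, 82.5 and 94.9 CPM in FGFR1 cells (log2 fold change 0.82 ± 0.16, adjusted p = 0.00112) and 78.2, 80.1 and 82.0 CPM in PIK3CA cells (0.74 ± 0.16, adjusted p = 0.000767). Neither group overlapped HcRed. Under the chemicals both lines again lay above every HcRed library (72.2 to 116 CPM in FGFR1 and 75.2 to 115 CPM in PIK3CA, against 31.8 to 59.8 CPM). The log2 fold changes there were 1.10 ± 0.11 (adjusted p = 1.34e-12) and 1.10 ± 0.10 (adjusted p = 4.77e-14).

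With DMSO, TIMP2 and MMP14 were the 2 members called in FGFR1 cells (1.86% of 14214 genes called) and TIMP2 the only one in PIK3CA cells (8.6% of 14278 genes). MMP14 was 192, 192 and 204 CPM in FGFR1 cells against 141, 150 and 168 CPM in HcRed cells. Its log2 fold change of 0.36 ± 0.10 only just passed (adjusted p = 0.0481) and failed under edgeR (adjusted p = 0.0566), DESeq2 (0.503), no filter on low counts (0.051), a fit of all libraries (0.0668) and the GC correction (0.0597). It also failed without any single library but HcRed replicate 2 (0.0788 to 0.321), and without the 2 FGFR1 libraries that held NRG1 reads (0.217, with 1 FGFR1 library left that was assumed to vary like the others). PLAT was higher in every FGFR1 (12.9 to 16.01 CPM) and PIK3CA library (11.9 to 17.0 CPM) than in any HcRed library with DMSO (5.17 to 8.64 CPM). The adjusted p of these log2 fold changes of 1.05 ± 0.38 and 1.08 ± 0.38 was 0.168 and 0.0608.

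Over the chemicals, 4 of 7 members were called in FGFR1 cells, all higher (9.48% of 14309 genes called) and 5 of 7 in PIK3CA cells, also all higher (22% of 14372 genes called). PLAT was then 1.05 ± 0.23 higher in FGFR1 (adjusted p = 0.000686) and 1.14 ± 0.21 higher in PIK3CA cells (adjusted p = 2.13e-05). PLAU was 0.51 ± 0.13 and 0.44 ± 0.12 higher (adjusted p = 0.00431 and 0.00452), and both calls ended without replicate 3 (adjusted p = 0.0962 and 0.0763). MMP14 was 0.25 ± 0.07 and 0.20 ± 0.07 higher (adjusted p = 0.0128 and 0.0185). The call in FGFR1 ended without replicate 1 or 2 (adjusted p = 0.167 and 0.229) and that in PIK3CA without replicate 1 or 3 (0.122 and 0.0887). PLAUR was called only in PIK3CA cells among the overexpression lines, at a median of 31.4 CPM (18.8 to 53.8) against 19.9 CPM (10.01 to 29.6), with a log2 fold change of 0.71 ± 0.15 (adjusted p = 0.000262). In FGFR1 cells the PLAUR difference was 0.18 ± 0.18 (95% interval -0.17 to 0.53), and the lines were not compared with each other.

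NRF2 cells, which overexpress the transcription factor of the oxidative stress response, had no member called with DMSO (0 of 7 by limma, edgeR and DESeq2, and 2, 2 and 1 at an unadjusted p under 0.05). Of all 14035 genes, 7.16% were called. TIMP2 was 54.6, 67.4 and 81.8 CPM, above each HcRed library, with a log2 fold change of 0.52 ± 0.18 (adjusted p = 0.0641). Under the chemicals (15.6% of 14226 genes called) TIMP2 was 0.68 ± 0.11 higher (adjusted p = 4.04e-06), and MMP14 fell, with a log2 fold change of -0.25 ± 0.07 (median 157 against 192 CPM, adjusted p = 0.0081). The fall of MMP14 was not called without the NRF2 libraries that held NRG1 reads, which were all 3 with CSC (-0.12, adjusted p = 0.39), nor without replicate 2 or 3 (adjusted p = 0.102 and 0.155).

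NRG1 cells, which overexpress a ligand of ERBB receptors, had the fewest members called against HcRed. Under the chemicals they also had the smallest share of all genes called of any perturbed line. With DMSO no member was called by limma, edgeR or DESeq2 (1, 1 and 0 at an unadjusted p under 0.05), against 2.04% of 14053 genes. Under the chemicals, MMP2 alone was called (6.38% of 14210 genes), at a median of 14.3 CPM (7.43 to 18.2) against 9.16 CPM (2.70 to 19.9). Its log2 fold change of 0.86 ± 0.27 (adjusted p = 0.0407) was not past the threshold with edgeR, DESeq2, no filter on low counts, the replicate block (adjusted p = 0.159, 0.323, 0.0816 and 0.136) or without replicate 1 or 2 (0.145 and 0.788). With DMSO, MMP2 was 11.1, 12.9 and 13.4 CPM in NRG1 cells against 4.32, 5.17 and 6.88 CPM (1.11 ± 0.44, adjusted p = 0.21), and the ranges did not overlap. PLAUR with DMSO was 16.6, 18.2 and 20.6 CPM against 11.5, 12.1 and 13.8 CPM, also without overlap. Under the chemicals its median was 28.1 CPM (18.0 to 36.7) against 19.9 CPM (10.01 to 29.6), and it was called in neither setting. TIMP2 (0.13, 95% interval -0.11 to 0.37, under the chemicals) and PLAT (-0.20, interval -0.75 to 0.36) did not pass.

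The controls themselves differed in TIMP1. Of 7 members, TIMP1 alone was called between GFP and HcRed cells with DMSO, against 17.7% of 14218 genes. It was 20.2, 20.3 and 27.9 CPM in GFP and 55.1, 60.5 and 66.9 CPM in HcRed cells, a log2 fold change of -1.38 ± 0.21 (0.38-fold, adjusted p = 2.91e-07). The same split held over all lines and exposures. The 36 libraries of FAT1, CDKN2A and GFP cells had 11.2 to 45.7 CPM of TIMP1 and the 59 libraries of the HcRed set had 50.9 to 143 CPM, without overlap. The share of all genes that separate the sets in this way is not given here. The control plasmids, the way cells were made and any batch that goes with them cannot be told apart here, and TIMP1 within a set was compared only with that set's control.

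Each chemical was compared with DMSO over all 8 lines, with line as a covariate. As a check of the labels, CYP1A1, an enzyme induced by polycyclic aromatic hydrocarbons, stood at 0 to 18.5 CPM with DMSO, 124 to 790 CPM with CSC, 104 to 826 CPM with BaP and 32.7 to 112 CPM with NNK. With CSC (23 against 24 libraries), 4 of 7 members were called, all of them higher, against 55.6% of 14497 genes called. PLAUR rose by 0.73 ± 0.10 (median 29.0 against 16.7 CPM, 1.65-fold, adjusted p = 7.25e-10) and TIMP1 by 0.68 ± 0.07 (86.0 against 56.9 CPM, 1.60-fold, adjusted p = 6.44e-16). PLAU rose by 0.37 ± 0.07 (49.7 against 36.9 CPM, adjusted p = 4.68e-06) and MMP14 by 0.22 ± 0.04 (197 against 162 CPM, adjusted p = 1.01e-05). All 8 lines had a higher level of PLAUR, TIMP1 and PLAU with CSC than with DMSO. PLAT (0.03 ± 0.12), MMP2 (0.30 ± 0.21) and TIMP2 (0.05 ± 0.06) did not pass. The summed leukocyte and endothelial markers, again mostly CD68, had a median of 24.1 CPM with CSC and 12.1 CPM with DMSO, and the fibroblast markers, mostly COL1A1, 35.2 and 18.5 CPM. Their part in the result was not tested, and PTPRC, LYZ, CDH5, COL3A1 and LUM had a median of 0 over all libraries.

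BaP gave calls for the same 4 genes (51.4% of 14392 genes called) and NNK for MMP14 and TIMP1 (51.7% of 14387 genes called), with smaller values for TIMP1 and PLAUR. With BaP, TIMP1 was 0.27 ± 0.07, MMP14 0.28 ± 0.04, PLAU 0.27 ± 0.08 and PLAUR 0.24 ± 0.10 higher (adjusted p = 0.000364, 1.59e-08, 0.00239 and 0.0424). The PLAUR call with BaP ended without the FAT1, HcRed, FGFR1, NRG1 or PIK3CA line (adjusted p = 0.0514, 0.0503, 0.166, 0.251 and 0.0566), without replicate 2 or 3 (0.171 and 0.232) and without the libraries with NRG1 reads (0.111). It also ended with no filter on low counts (0.0607) and in a fit of all libraries (0.0652). The PLAU call with BaP ended without PIK3CA (adjusted p = 0.0869) or replicate 1 (0.069). With NNK, TIMP1 was 0.44 ± 0.07 and MMP14 0.24 ± 0.04 higher (adjusted p = 2.98e-08 and 1.92e-07), and PLAUR was 0.22 ± 0.11 (adjusted p = 0.0729).

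Over all genes, the changes with each chemical followed GC content, and PLAUR, TIMP1 and PLAU with CSC lay above that trend. With CSC, the median log2 fold change rose from -0.28 in genes of up to 40% GC to 0.14 in genes of 50 to 55%, 0.31 in genes of 55 to 60% and 0.49 above 60%. BaP (-0.23 to 0.48) and NNK (-0.26 to 0.49) gave nearly the same course. No label gives a batch. An effect of the chemicals and a difference in how DMSO and treated libraries were made cannot be told apart here. The origin of the trend was not tested. The exons of MMP14 hold 58.7% GC, those of TIMP1 58.4%, TIMP2 55.4%, MMP2 55.2%, PLAU 53.7%, PLAUR 52.7% and PLAT 48.3%, so most members lie where the median gene rose. After a correction of each library for the GC content and exon length of genes (34.1% of genes then called for CSC, 25.2% for BaP and 17.4% for NNK), MMP14 turned from a rise to -0.14 with CSC (adjusted p = 0.00462), -0.06 with BaP (0.274) and -0.12 with NNK (0.0303). PLAUR with CSC stayed at 0.59 (adjusted p = 2.95e-07), TIMP1 at 0.37 (9.42e-07) and PLAU at 0.20 (0.0138). With BaP, TIMP1 (-0.0005, adjusted p = 0.997), PLAUR (0.10, 0.535) and PLAU (0.10, 0.357) were no longer called, and with NNK TIMP1 was 0.19 (0.0366). TIMP2, not called before, was -0.18, -0.17 and -0.18 (adjusted p = 0.0126, 0.0221 and 0.0233). FAT1 and CDKN2A cells also followed GC content against GFP with DMSO (medians of -0.14 and -0.16 up to 40% GC and 0.32 and 0.34 above 60%). With DMSO the medians of NRF2 against HcRed ran the same way (-0.14 to 0.20) and those of GFP against HcRed the other way (0.12 to -0.21).

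**Figure D3:**
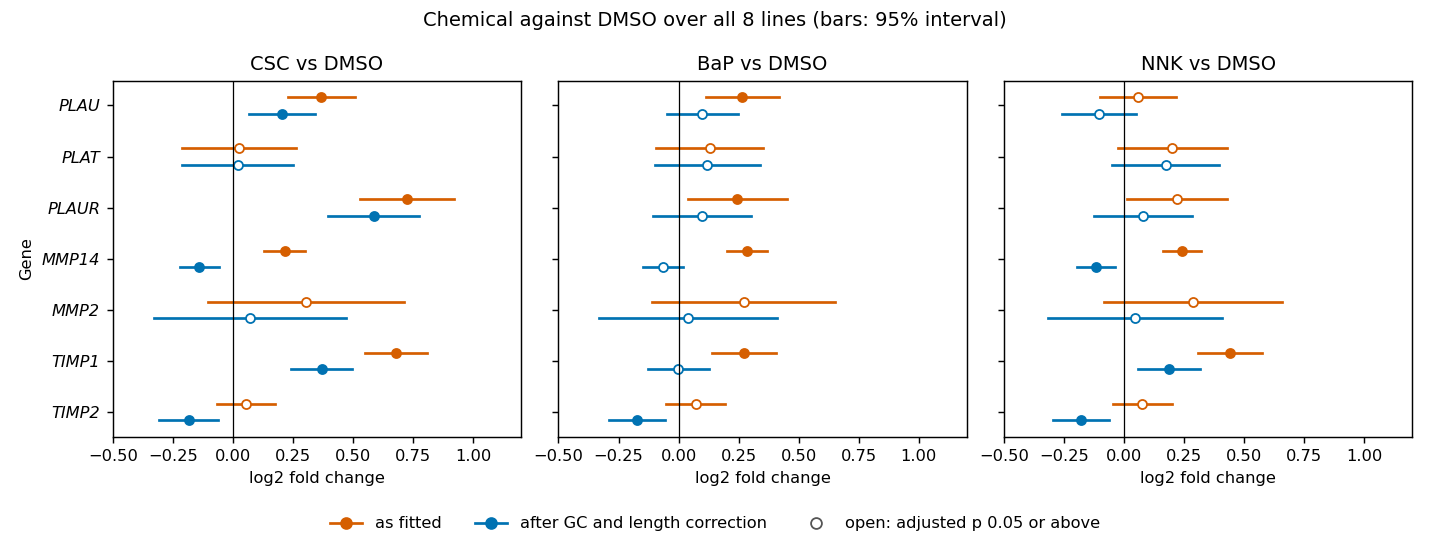
Log2 fold change (horizontal axis) of the 7 tested genes (vertical axis) with CSC, BaP or NNK against DMSO over all lines, as fitted (orange) and after removal of the GC and length trend of each library (blue). Bars are 95% intervals and filled points have an adjusted p below 0.05. PLAUR, TIMP1 and PLAU with CSC stay right of 0 in both fits (0.59 for PLAUR and 0.37 for TIMP1 after correction), whereas MMP14 moves from 0.22 to -0.14.

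**Figure D4:**
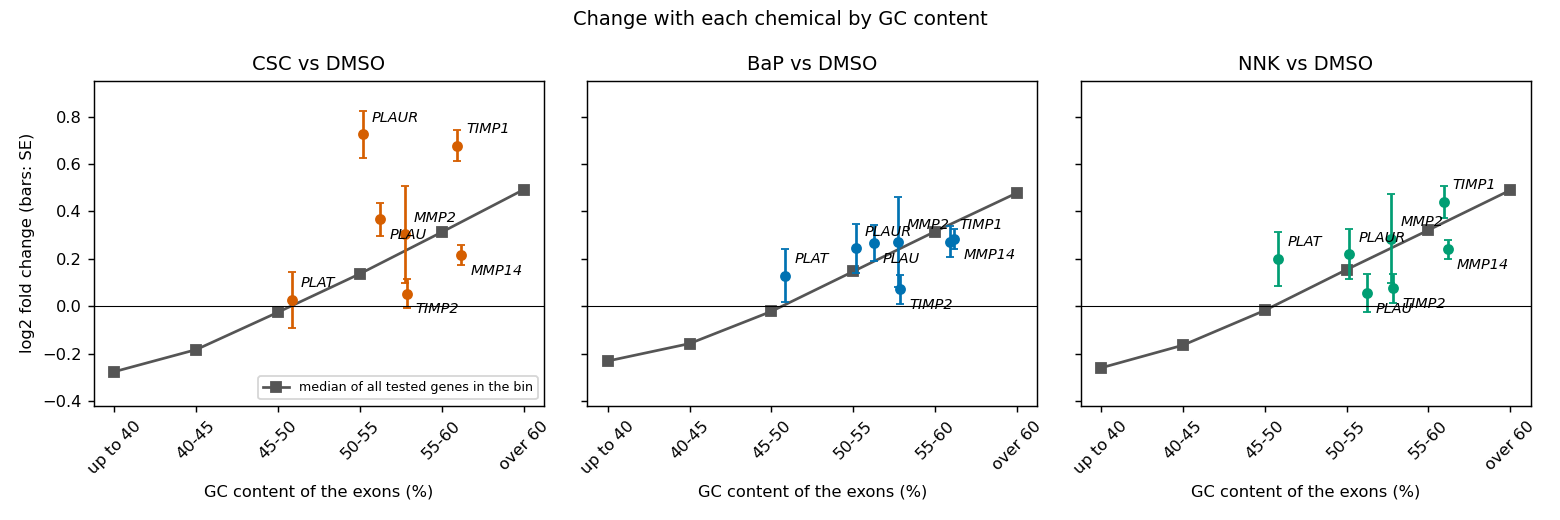
Log2 fold change with each chemical (vertical axis) against the GC content of exons (horizontal axis, %). Grey squares are medians of all tested genes in 6 GC ranges, with the open-ended ranges drawn next to their neighbours, and coloured points are the 7 members with their SE. With CSC, PLAUR, TIMP1 and PLAU lie above the grey line and TIMP2 and MMP14 below it.

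Because DMSO differed from all 3 chemicals along GC content, the chemicals were also compared with each other, a choice made after the trend was seen. There the median of genes above 60% GC was 0.03 for CSC against BaP, 0.02 for CSC against NNK and -0.01 for BaP against NNK. PLAUR was 0.50 ± 0.10 higher with CSC than with BaP (adjusted p = 0.00016) and 0.49 ± 0.10 higher than with NNK (adjusted p = 8.44e-05). TIMP1 was 0.43 ± 0.07 higher than with BaP (adjusted p = 9.56e-07) and 0.26 ± 0.07 higher than with NNK (adjusted p = 0.00292). PLAU was 0.32 ± 0.08 higher with CSC than with NNK (adjusted p = 0.00125), while against BaP the difference was 0.11 (95% interval -0.02 to 0.25). These were 2 of 7 members between CSC and BaP (15.1% of 14345 genes called) and 3 of 7 between CSC and NNK (21.6% of 14339), each also called after the GC correction. The PLAUR call against BaP ended without replicate 1 (0.35, adjusted p = 0.0628), the TIMP1 call against NNK without replicate 1 (0.15, adjusted p = 0.186) and in a fit of all libraries (0.19, adjusted p = 0.0549), and the PLAU call against NNK without replicate 2 (0.27, adjusted p = 0.0601). Between BaP and NNK no member was called by limma, edgeR or DESeq2 (2 by each at an unadjusted p under 0.05), against 9.19% of 14231 genes. MMP14 differed by -0.05 (interval -0.13 to 0.04), -0.01 (-0.10 to 0.09) and 0.04 (-0.05 to 0.14) in the 3 comparisons. The doses were unequal in mass and molarity, and no other dose was measured.

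Whether a member's response to a chemical differed between lines was tested with the interaction of chemical and line. MMP14 with CSC was the only member called (F = 4.29, adjusted p = 0.0409, against 0.952% of 14497 genes). Its level with CSC was above DMSO by 0.58 ± 0.09 in PIK3CA, 0.40 ± 0.11 in NRG1 and 0.37 ± 0.10 in HcRed cells. It was -0.09 ± 0.12 in NRF2 and -0.08 ± 0.10 in FAT1 cells, and between 0.12 and 0.19 in the other 3 lines. The call ended after the GC correction (adjusted p = 0.108), with no filter on low counts (0.0611), in a fit of all libraries (0.111) and without any replicate number (0.292 to 0.357). It ended too without the libraries with NRG1 reads (0.0694), or without the FAT1, HcRed, NRF2, NRG1 or PIK3CA line (0.0502 to 0.342). For BaP and NNK no member was called by limma, edgeR or DESeq2 (3, 3 and 1 at an unadjusted p under 0.05 for BaP and 0 by each for NNK), against 0.368% and 0.452% of genes.

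**Figure D5:**
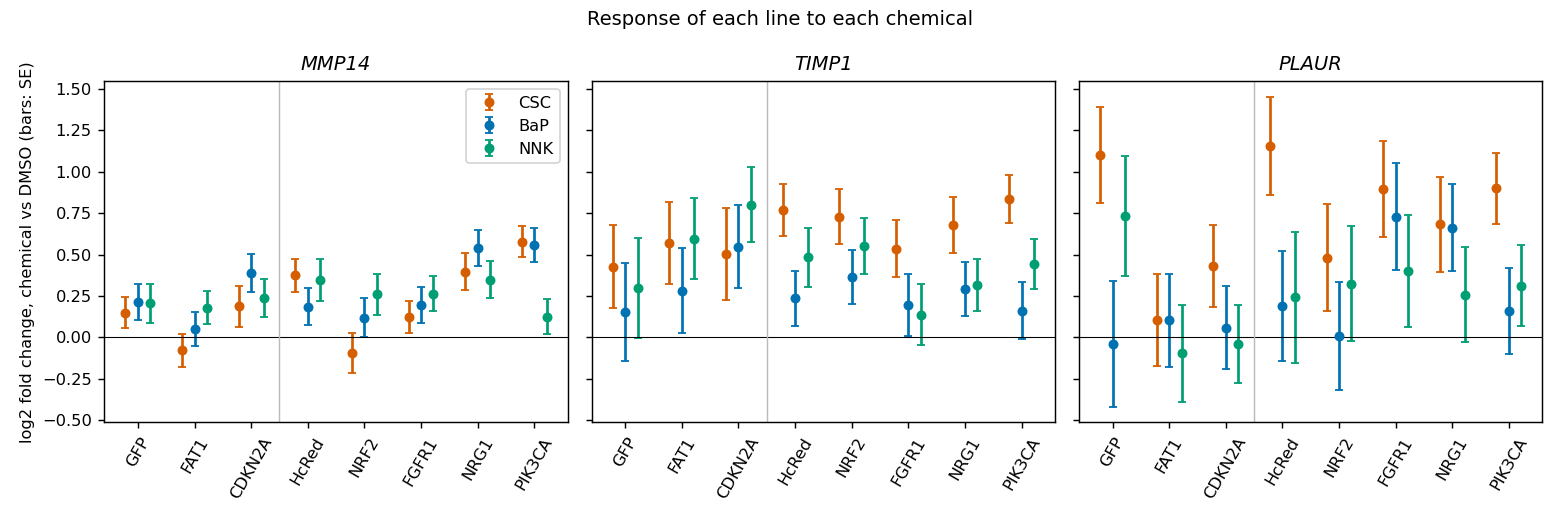
Log2 fold change with CSC, BaP or NNK against DMSO (vertical axis) of MMP14, TIMP1 and PLAUR within each line (horizontal axis). Points are fitted values and bars their SE, and the grey line separates the GFP set from the HcRed set. TIMP1 is above 0 in all 8 lines with each chemical (0.14 to 0.84), whereas MMP14 with CSC runs from -0.09 in NRF2 to 0.58 in PIK3CA cells.

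Other genes of the same system were counted from lists. Of 18 other MMP genes, 4 to 7 passed the filter, depending on the comparison. MMP16, a membrane-type MMP, was at 1.28 CPM in GFP cells with DMSO and rose in FAT1 (5.27 CPM, adjusted p = 0.0286) and CDKN2A cells (10.9 CPM, adjusted p = 0.000193). It also rose in PIK3CA cells (7.67 against 1.05 CPM in HcRed, adjusted p = 0.0156). The MMP16 levels of both controls were below the 1.96 to 4.32 CPM that 3 counts made in DMSO libraries, so its rises rest on few reads. MMP28, a secreted MMP of epithelia, fell in CDKN2A (12.8 against 27.7 CPM, adjusted p = 0.000524) and PIK3CA cells (9.11 against 18.3 CPM, adjusted p = 0.0321). These were 1 of 4, 2 of 5 and 2 of 6 tested in FAT1, CDKN2A and PIK3CA cells with DMSO, beside 26.3%, 37.2% and 8.6% of all genes called, so the shares in the knockout lines lay near the background. With DMSO no other MMP was called in NRF2, FGFR1 or NRG1 cells. With each of CSC, BaP and NNK, 3 of the other MMPs rose (of 6, 7 and 6 tested) and none fell, beside 55.6%, 51.4% and 51.7% of all genes called, so these shares lay near the background. MMP15 and MMP17 were among the 3 each time. After the GC correction 1 was higher and 1 lower with CSC, 1 was higher with BaP and 0 were called with NNK. MMP15 changed by 0.62, 0.67 and 0.49 and was not called after the GC correction (0.05, 0.13 and -0.06).

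Of 9 other inhibitors, 6 or 7 were tested. SERPINE2, an inhibitor of thrombin and urokinase, fell in FAT1 cells with DMSO (14.6 against 33.7 CPM, -1.26 ± 0.25, adjusted p = 0.000176) and rose in CDKN2A cells (69.8 CPM, 0.99 ± 0.18, adjusted p = 4.13e-06). TIMP3, the matrix-bound TIMP, fell in FAT1 and PIK3CA cells with DMSO (-0.55 ± 0.19 and -0.52 ± 0.16, adjusted p = 0.023 and 0.0271). SERPINB2, a further inhibitor of urokinase, was at 2.07 CPM in FAT1 and 3.99 CPM in CDKN2A cells under the chemicals against 20.3 CPM in GFP cells (adjusted p = 6.32e-11 and 1.51e-08). With CSC 4 of 7 tested inhibitors rose and none fell, with BaP 2 rose and 2 fell, and with NNK 3 rose and 1 fell, again near the 55.6%, 51.4% and 51.7% of all genes called. With CSC SERPINB2 rose most, by 2.34 (19.4 against 3.53 CPM, adjusted p = 8.13e-20), and was still called after the GC correction (2.55, adjusted p = 5.36e-23). Compared directly, SERPINB2 was also higher with CSC than with BaP (1.18, adjusted p = 2.36e-08) and NNK (1.56, adjusted p = 5.97e-12).

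Among 13 genes for plasminogen, its binding proteins and other surface partners, 10 were tested. CD44, the hyaluronan receptor, fell in 5 of the 6 lines in both settings, from 601 to 368 CPM in CDKN2A and from 538 to 372 CPM in NRF2 cells with DMSO (-0.73 ± 0.07 and -0.55 ± 0.07, adjusted p = 2.47e-15 and 4.57e-08). LRP1, a scavenger receptor that clears activator and inhibitor complexes, fell in CDKN2A cells with DMSO (39.9 against 91.0 CPM, -1.23 ± 0.16, adjusted p = 3.4e-09) and rose in FGFR1 cells (102 against 63.3 CPM, 0.69 ± 0.16, adjusted p = 0.00638). ST14, a membrane serine protease, rose in NRF2 cells (161 against 82.7 CPM, 0.94 ± 0.13, adjusted p = 4.57e-08). ANXA2, which binds plasminogen and PLAT, fell in FAT1 cells (497 against 723 CPM, -0.57, adjusted p = 6.7e-09). Plasminogen itself (PLG) was not among the genes tested.

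All 13 listed AP-1 and ETS factors, which bind sites found in many MMP and PLAU promoters, were tested. With CSC 12 of 13 rose and none fell, with BaP 10 rose and 1 fell, and with NNK 9 rose and 1 fell. Of all genes, 55.6%, 51.4% and 51.7% were called in either direction. The median log2 fold change of the list was 0.83, 0.81 and 0.46, against -0.01, 0.01 and 0.00 for all genes. After the GC correction 10, 10 and 7 were higher and none lower, beside 34.1%, 25.2% and 17.4% of all genes called. FOS rose from 14.8 CPM with DMSO to 61.2 CPM with CSC (2.07, adjusted p = 1.52e-35), 60.5 CPM with BaP (2.025, adjusted p = 2.62e-31) and 75.0 CPM with NNK (2.33, adjusted p = 2.62e-37). FOSL1 rose by 1.83, 1.25 and 1.07 and was 0.60 higher with CSC than with BaP and 0.73 higher than with NNK (adjusted p = 2.98e-07 and 3.56e-10). Among lines with DMSO, 6 of 13 rose and none fell in CDKN2A cells, where 37.2% of all genes were called. The 6 were led by FOSL1 (23.8 against 5.92 CPM, 2.06 ± 0.40, adjusted p = 2.34e-05) and ETV5 (114 against 35.4 CPM, 1.67 ± 0.16, adjusted p = 3.94e-14). ETV5 fell in FAT1 cells (7.98 CPM, -2.11 ± 0.31, adjusted p = 1.19e-06) and in FGFR1 cells (16.6 against 36.6 CPM, -1.15 ± 0.27, adjusted p = 0.00783). ETS1 rose in PIK3CA cells (90.1 against 35.9 CPM, 1.36 ± 0.18, adjusted p = 3.05e-08).

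Patterns over the 32 combination means of log2 CPM were compared among the 10062 genes whose counts averaged 10 or more, as a description. MMP2 and the 3 genes near 0 were too low for this. TIMP2 was most like KRT8, a keratin of simple epithelia (Pearson r = 0.916), followed by MRPL40 (0.805) and TRANK1 (0.796). TIMP1 was most like TGFBI, a secreted matrix protein (0.921), and was also like TUBA4A (0.908). PLAUR was most like UBALD2 (0.840), HPCAL1 (0.834) and PHLDA2 (0.834), PLAT most like CNTNAP1 (0.805), SWI5 (0.792) and TENM3 (0.776), MMP14 most like SHMT2 (0.779), RABL6 (0.772) and TBC1D2 (0.765), and PLAU most like TNFAIP2 (0.778), PTGS1 (0.711) and NINJ1 (0.708). Among the members themselves, MMP14 with PLAU (0.696) and TIMP2 with PLAT (0.664) were most alike, and TIMP1 with MMP14 (-0.0178) had no common course. The 32 points share lines, exposures and the GC trend of their libraries.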

How the data were processed

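SFL libraries, made with depletion of ribosomal RNA, were sequenced as single-end reads. The study reports that ribosomal RNA remained in them and lowered the number of counted reads. The authors trimmed adapters with cutadapt 1.12, checked reads with FastQC 0.11.5, aligned them to hg19 with STAR 2.5.2b and assigned them to RefSeq genes with featureCounts, and they deposited raw counts per gene without normalization. The sources used here describe no molecular identifiers for SFL reads, so intervals and floors cover counting error only.

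Counts were scaled with TMM (edgeR 4.0.16, R 4.3.3), levels were taken as CPM or as log2 CPM with a prior count of 2, and tests were made in limma 3.58.1 after the voom transformation (2-sided). Genes entered a comparison where their mean count in its samples exceeded 1, with Benjamini-Hochberg adjustment over all of them, and a threshold of 0.05. As alternatives, DESeq2 1.42.0, the quasi-likelihood test of edgeR, DESeq2 size factors, other filters, all samples in one fit, the replicate block, leaving out samples or lines, and a loess correction (span 0.3) for GC content and exon length (GENCODE on GRCh37, 86.9% of symbols matched) were run. Tests were checked on simulated data. Groups came from the sample labels. The members and lists were chosen with earlier results of these data known. The text names all members, the called genes of other lists with the largest changes, and the 3 genes most like each member, except for some genes that are not reported here. Strand setting and exposure time were not given in the sources used here. No paired block entered the main fits.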

Additional observations from a re-analysis of the deposited data

Results flagged for a closer look

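The response of MMP14 to CSC differed between the 8 lines by the interaction of CSC and line (moderated F test, limma adjusted p = 0.0409), with log2 fold changes from -0.09 in NRF2 cells to 0.58 in PIK3CA cells. The call did not hold after the GC and length correction (adjusted p = 0.108).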

How the results depend on the processing

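Of 48 member differences called, 26 stayed past the threshold in the same direction under each alternative run, 22 lost the call under at least 1, and 4 of these changed direction. All 4 changed with the GC and length correction, namely MMP14 with CSC (-0.14), BaP (-0.0639) and NNK (-0.12) and TIMP1 with BaP (-0.0005). The number of members called moved by over 1.5 times as follows. For NRF2 with DMSO it went from 0 to 1 with a mean count of at least 10 or the replicate block. For FGFR1 with DMSO it went from 2 to 1 with edgeR, DESeq2, no filter, all samples in one fit, the GC correction or without libraries with NRG1 reads. For PIK3CA with DMSO it went from 1 to 3 with edgeR and to 2 with a mean count of at least 10 or the GC correction, and for GFP against HcRed from 1 to 2 with the GC correction. Under the chemicals, NRF2 went from 2 to 1 without libraries with NRG1 reads, and NRG1 from 1 to 0 with edgeR, DESeq2, no filter or the replicate block and to 2 with a mean count of at least 10, all samples in one fit or the GC correction. BaP went from 4 to 1 with the GC correction and to 2 without the PIK3CA line. The interaction of CSC and line went from 1 to 0 with no filter, all samples in one fit, the GC correction, without the FAT1, HcRed, NRF2, NRG1 or PIK3CA line or without libraries with NRG1 reads, and BaP against NNK from 0 to 1 without the NRF2 line. Leaving out 1 replicate gave 0 to 1 members for NRF2, 1 to 2 for FGFR1 and 1 to 2 for PIK3CA with DMSO. It gave 1 to 2 for NRF2, 0 to 1 for NRG1 and 3 to 5 for PIK3CA under the chemicals, 0 for the CSC interaction and 1 to 2 for CSC against BaP. Among all genes, DESeq2 lowered the calls for FAT1, CDKN2A, NRF2, FGFR1, NRG1, PIK3CA and GFP with DMSO from 3752 to 1983, 5408 to 3402, 1005 to 307, 265 to 83, 287 to 72, 1228 to 460 and 2518 to 989, and the GC correction lowered those for CSC, BaP and NNK from 8061 to 4628, 7402 to 3401 and 7438 to 2353. NNK rose to 11531 with no filter. FGFR1 with DMSO fell to 121 without libraries with NRG1 reads and NRG1 with DMSO to 175 with all samples in one fit. Leaving out 1 replicate lowered the calls for NRF2 with DMSO to as few as 567 (without HcRed 1 or 3 or NRF2 1), for FGFR1 to 119 (without HcRed 1) and for NRG1 to as few as 166 (without HcRed 1 or 3 or NRG1 2). Under the chemicals NRF2 fell from 2219 to as few as 1328, FGFR1 from 1357 to 627, NRG1 from 907 to 346 and PIK3CA from 3155 to 2047, and CSC against BaP fell from 2165 to 1182, CSC against NNK from 3094 to 1864 and BaP against NNK from 1308 to 664. Interaction calls became 54 to 75 for CSC, 26 to 42 for BaP and 28 to 124 for NNK. Fewer samples enter these fits. Under other alternatives interaction calls fell from 138 to between 60 and 91 for CSC, from 53 to between 18 and 33 for BaP and from 65 to between 16 and 42 for NNK. The cause was not tested. Samples with the same replicate number did not deviate together with DMSO (correlations of -0.0439 to 0.0705). In the comparisons that used the chemicals, single pairs ran from -0.2608 to 0.2601, with medians per comparison of -0.0024 to 0.0295. The numbers were not taken as pairs, and the replicate block was run as an alternative. Depth limits MMP1, MMP9, MMP10 and MMP2 most.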
